A study of Mus musculus with 9 samples.

Results

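The comparison described here set B.END3 cells given the lower light dose of photodynamic treatment (Ep1 group) against untreated cells (Ctrl group), with 3 libraries in each group. Its members were the genes whose FPKM (fragments per kilobase of gene, scaled to library size) was 1 or more in at least 3 of these 6 libraries, which gave 11345 genes of the 54532 listed. B.END3 is a mouse line labelled as brain microvessel endothelium of strain C57BL/6, although its growth protocol calls the line rat. Ep1 monolayers were incubated with the photosensitizer porfimer sodium at 300 µg/mL for 90 min and lit with a 635 nm laser at 100 mW/cm2 to 10 J/cm2, and Ctrl cells are labelled untreated, so the drug, the light and their combination cannot be told apart in these libraries. A further group (Ep2, 3 libraries) received 20 J/cm2 and is given beside Ep1 for the genes named, without a test, because both doses share the Ctrl libraries. The sources used here do not give the time between light and lysis, and no source says that the 3 libraries of a group came from separate cultures, so the p-values measure the spread between these libraries, which may be technical.

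Photodynamic treatment excites a light-absorbing drug, here a mixture of porphyrins, which passes energy to oxygen and yields singlet oxygen and other reactive oxygen species (ROS) close to where the drug lies. Cells meet such oxidants with several known programs. NRF2 is a transcription factor that KEAP1 keeps low until oxidants or electrophiles modify KEAP1, after which it acts through antioxidant response elements in genes of glutathione synthesis and heme breakdown. The integrated stress response raises translation of ATF4, a factor for amino acid transport and synthesis. Immediate early genes such as Fos, Egr1 and Atf3 are induced within minutes to hours of growth signals or stress and decline soon after.

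The 6 libraries held 16797492 to 19509225 fragments recovered from the FPKM values, and the 3 Ep1 libraries lay on the other side of the first principal component (45% of the variance) from the 3 Ctrl libraries. The mean Euclidean distance between libraries of different groups was 28.7, against 22 within groups, a ratio of 1.31. Ep1 replicate 1 lay farthest from the Ctrl libraries (mean distance 30.5) and Ep1 replicate 2 nearest (26.6). The label of the cells was checked against marker genes. Of 27 endothelial markers, 4 passed the filter (Flt1, Eng, Egfl7 and Ecscr) and 21 were below 1 FPKM in all 6 libraries, among them Pecam1, Kdr, Tek and Vwf, and 6 were at 0 in all of them. The keratin gene Krt8 reached 562 to 658 FPKM. The summed level of the 27 endothelial markers was 31.8 to 32.9 FPKM in Ctrl and 30.1 to 35.1 in Ep1, that of 12 epithelial markers 1030 to 1080 and 937 to 1040, and that of 9 fibroblast markers 41.7 to 43.8 and 37.1 to 42.1. Of the 12 epithelial markers, 3 passed the filter, the keratins Krt8, Krt18 and Krt19. Another 8 were below 1 FPKM in all 6 libraries, among them Cdh1 and Esrp1, as were 7 of the 9 fibroblast markers. No marker of the 6 cell types examined passed the test, and the cells are called by their line name below.

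The low dose moved few transcripts far. In limma's test on log2(FPKM + 1), with Benjamini-Hochberg adjustment over the 11345 genes, 1369 genes (12.1%) had an adjusted p below 0.05, with 754 (6.65%) higher in Ep1 and 615 (5.42%) lower. Differentially expressed genes (DEGs), which also had a log2 fold change above 0.6 or below -0.6, numbered 91 (0.802%), of which 64 (0.564%) were higher and 27 (0.238%) were lower. Beyond 1 log2 unit there were 23 (0.203%). The counts of gene lists below stand beside the 12.1% of all tested genes past the test and their median log2 fold change of -0.01. Among the protein-coding genes (9991 tested), 38 DEGs were higher and 7 lower, and among the 742 pseudogenes 12 were higher and 14 lower. The libraries of all 91 DEGs did not overlap between the groups, as was true of 42.1% of all tested genes. Of the 64 higher DEGs, 9 passed the filter through the Ep1 libraries alone and so had to differ, and the same holds for 1 lower DEG and the Ctrl libraries. A limma-voom fit on the recovered fragments called 243 DEGs, 127 higher and 116 lower, over another set of genes. That set held the 13653 genes with 10 or more fragments in at least 3 of the 6 libraries, and 2525 of them were under the FPKM filter. The calls depended on single libraries: leaving out Ctrl replicate 1 gave 54 DEGs, Ctrl replicate 2 gave 31, Ep1 replicate 1 gave 32 and Ep1 replicate 3 gave 42. Of all tested genes, 410, 201 and 1064 passed the adjusted p without Ctrl replicates 1, 2 and 3. Without Ep1 replicates 1, 2 and 3 these numbers were 391, 850 and 294. List counts without 1 library, given below, stand beside these numbers. Without each library in turn, 27 DEGs passed the adjusted p every time and 6 never did. A set of 17, of which 13 were higher and 4 lower, also passed under the 9 other settings tried (Slc7a11, Gclm, Hmox1, Ppp1r10, Pcf11, Il11, Areg, Per1, Btg1, Pnrc1, Hes1, Sox9, Ucn, Alas1, Snx33, Atoh8 and Gm8129). A gene that a setting did not test was left out of this set, such as Irs2 and Slc30a1, which were too low for the filter at FPKM 5.

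**Figure D1:**
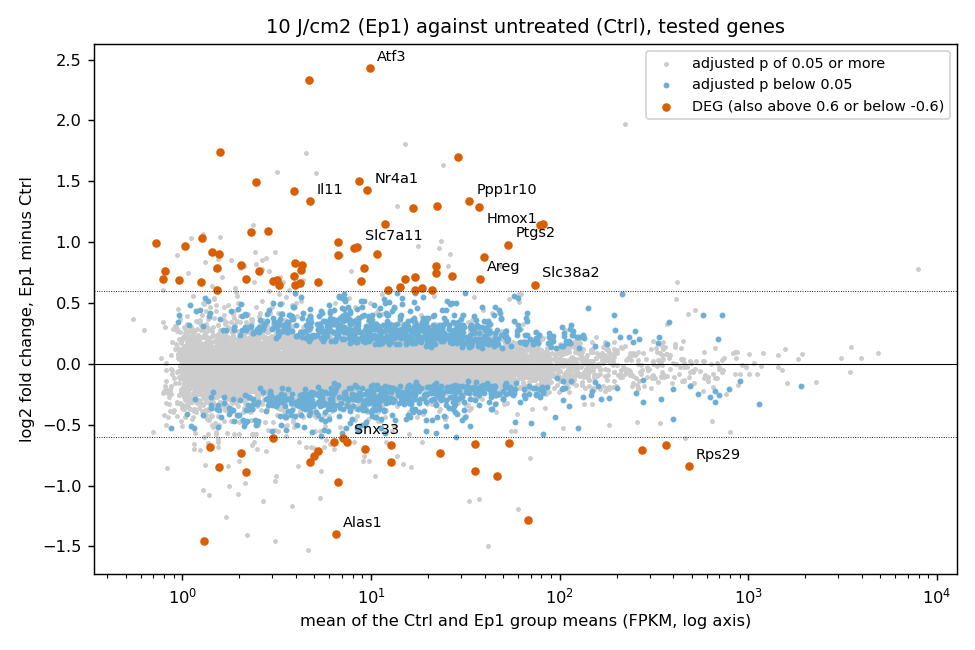
Log2 fold change of each tested gene (vertical axis, Ep1 minus Ctrl, on the log2(FPKM + 1) scale) against the mean of the 2 group means (horizontal log axis, FPKM). Blue points are genes with an adjusted p below 0.05, orange points the 91 DEGs beyond the dotted lines at 0.6 and -0.6, and grey points the rest; Atf3 at 2.43 and Alas1 at -1.40 lie near the ends, and most of the 1369 called genes lie between the dotted lines.

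The largest fall of a protein-coding gene was that of Alas1 (ENSMUSG00000032786, chromosome 9, 106233455 to 106248654, minus strand), which encodes the housekeeping form of 5-aminolevulinate synthase, the rate-limiting enzyme of heme synthesis, and is known to be repressed by heme. Alas1 measured 9.69, 9.7 and 10.2 FPKM in the Ctrl libraries and 3.15, 2.99 and 3.17 in the Ep1 libraries. The groups did not overlap, and each value rested on at least 310 fragments. The log2 fold change was -1.40 (SE 0.1, limma adjusted p = 0.000944), and the adjusted p stayed at or below 0.0114 with any 1 library left out. In Ep2 Alas1 measured 7.21, 4.85 and 5.45 FPKM. No other of the 11 heme synthesis genes tested passed the test, and the median log2 fold change of the 11 was -0.11, against -0.01 over all tested genes. Ppox, the enzyme before ferrochelatase, had a log2 fold change of -0.20 (limma adjusted p = 0.0729), and Fech, ferrochelatase, which puts iron into the porphyrin ring, had one of 0.06 (limma adjusted p = 0.487).

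Hmox1 (ENSMUSG00000005413, chromosome 8, 75093621 to 75100589), heme oxygenase 1, which splits heme into biliverdin, iron and carbon monoxide, measured 21.6, 21.8 and 20.4 FPKM in Ctrl and 59, 51.9 and 49.4 in Ep1. Its 3 Ep1 libraries all lay far above the Ctrl libraries, and the log2 fold change was 1.29 (SE 0.17, limma adjusted p = 0.00808). The Ep2 libraries held 86, 52.4 and 54.7 FPKM. Among 13 further genes of heme breakdown and iron handling that were tested, Ireb2, an iron regulatory protein, rose by 0.16 (limma adjusted p = 0.0488), and the other 12 did not pass the test. The median of the 13 was -0.04. Ireb2 passed in 1 of the 6 fits without a library, the one without Ctrl replicate 3, and of the 9 other settings it lost the call in 6, among them median centring and the length correction. Ferritin light chain Ftl1, an iron store, was listed under NRF2 and rose from 603 to 635 FPKM in Ctrl to 734 to 901 in Ep1 (log2 fold change 0.40, limma adjusted p = 0.0145).

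Hmox1 and Ftl1 were among 12 genes past the test, all of them higher, of 33 tested NRF2 regulators and targets, whose median log2 fold change was 0.09. Among the others were the cystine and glutathione genes. Slc7a11 (ENSMUSG00000027737, chromosome 3, 49892526 to 50443614), the cystine importer of the plasma membrane, measured 5.42, 5.08 and 5.76 FPKM in Ctrl and 12.6, 10.4 and 11.5 in Ep1 (log2 fold change 0.96, SE 0.07, limma adjusted p = 0.000944). In Ep2 Slc7a11 measured 16, 15.9 and 17.2 FPKM, and no library of one group entered the range of another. The subunits of glutamate cysteine ligase, the first step of glutathione synthesis, both rose. Gclm, the modifier subunit, went from 15.2, 14 and 14.3 FPKM to 23, 21.9 and 23.5 (log2 fold change 0.62, SE 0.077, limma adjusted p = 0.00487). Gclc, the catalytic subunit, went from 21.6, 19.9 and 21 FPKM to 27.8, 26.9 and 27.7 (log2 fold change 0.38, SE 0.045, limma adjusted p = 0.00487). Bach1, a repressor that competes with NRF2 and is released from DNA by heme, rose from 11.6, 10.8 and 10.4 FPKM to 16.5, 14.9 and 15.2 (log2 fold change 0.47, limma adjusted p = 0.00487). Gsr, glutathione reductase, rose by 0.35 on the log2 scale (limma adjusted p = 0.0105).

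The program was uneven. Nqo1, a quinone reductase often used as a readout of NRF2, held 83.7 to 87.6 FPKM in Ctrl and 86.9 to 89.2 in Ep1 (log2 fold change 0.04, limma adjusted p = 0.462), and its Ep2 libraries held 72.7 to 76.5. Ferritin heavy chain Fth1 had a log2 fold change of 0.09 (limma adjusted p = 0.19), and the transcript of NRF2 itself, Nfe2l2, one of 0.18 (limma adjusted p = 0.183). Of 23 tested enzymes of glutathione, thioredoxin and ROS removal outside that list, none rose and 3 fell: Sod1 by 0.19 on the log2 scale, which turns superoxide into peroxide, Gpx4 by 0.22, which reduces lipid peroxides, and Msrb1 by 0.22, which repairs oxidized methionine (limma adjusted p = 0.023, 0.0493 and 0.0395). The 3 made up 13% of these 23 genes, near the 12.1% of all tested genes, and the median of the 23 was -0.07. The number of NRF2 list genes past the test was 5 without Ctrl replicate 2, 6 without Ep1 replicate 1 or without Ep1 replicate 3, 7 without Ctrl replicate 1 and 8 without Ctrl replicate 3, and all of these were higher. Gpx4 lost its call in each of the 6 fits without a library, and Sod1 and Msrb1 in 5 of them. Ftl1 passed in 3 of the 6 fits without a library. Nqo1, Gsr, Ftl1 and Nfe2l2 were picked for mention after their values were seen.

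**Figure D2:**
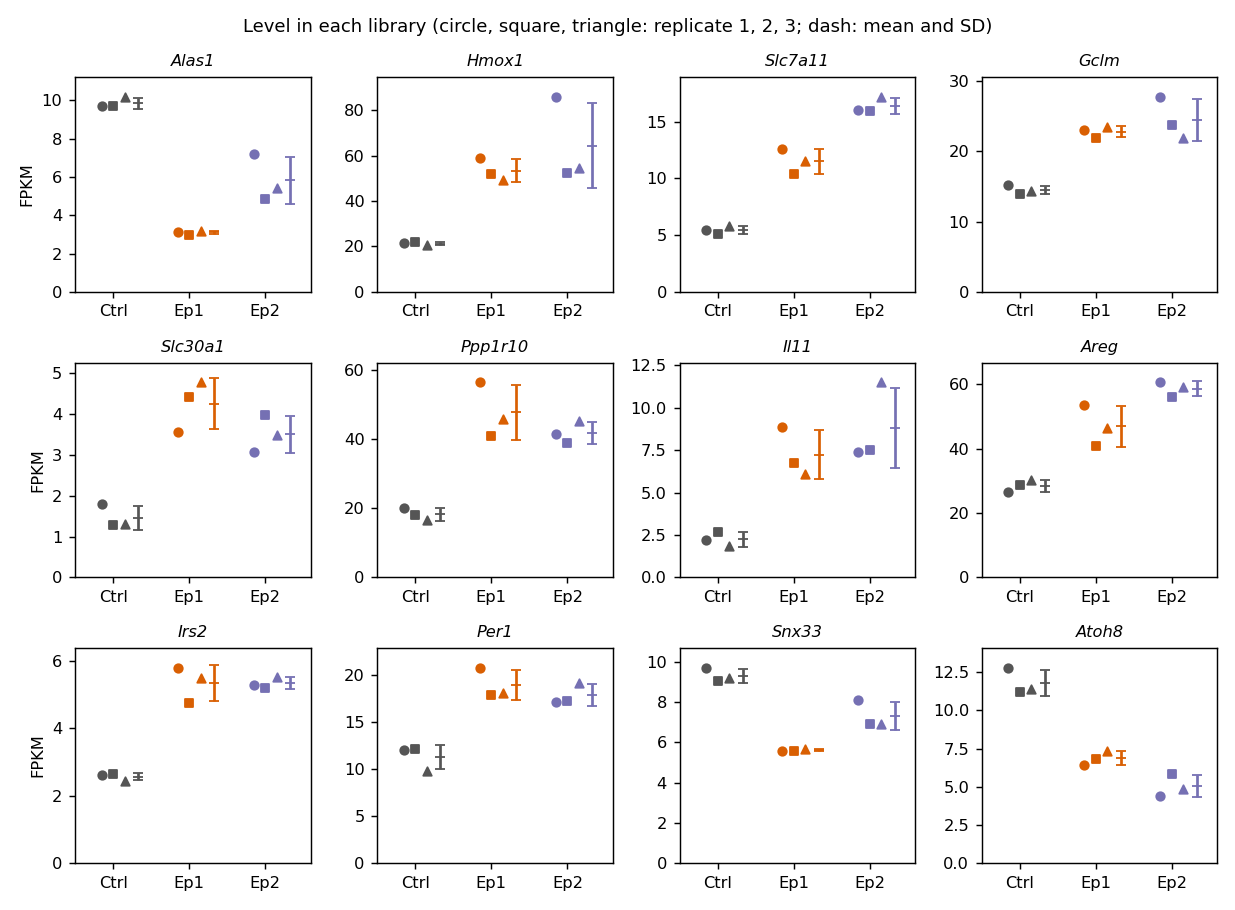
FPKM of 12 genes (vertical axes from 0) in the 3 Ctrl, 3 Ep1 and 3 Ep2 libraries, with the replicate number shown by the symbol and the mean and SD by a dash with bars. In every panel the Ep1 libraries lie entirely above or entirely below the Ctrl libraries; Alas1, Snx33 and Atoh8 are the 3 that were lower.

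The bases before the start of 3 of these genes are shown to place the named motifs, in the RefSeq annotation of GRCm38.p6, the build that the listed positions match. Each stretch holds the 250 bases before the transcript start, read 5′ to 3′ on the gene's strand, and capitals mark a motif. The stretch of Slc7a11 (chr3:50443614-50443863, minus strand) has the C/EBP-ATF composite TGATGNAAN, the kind of element bound by ATF4, once on each strand at 66 and 48 bases before the start. That of Gclm (chr3:122245307-122245556, plus strand) has an antioxidant response element, TGACNNNGC, on the opposite strand at 134 bases before the start. That of Mt2, a metallothionein gene described below (chr8:94172368-94172617, plus strand), has an antioxidant response element and an AP-1 site, TGANTCA, that overlap at 79 bases before the start.
Slc7a11: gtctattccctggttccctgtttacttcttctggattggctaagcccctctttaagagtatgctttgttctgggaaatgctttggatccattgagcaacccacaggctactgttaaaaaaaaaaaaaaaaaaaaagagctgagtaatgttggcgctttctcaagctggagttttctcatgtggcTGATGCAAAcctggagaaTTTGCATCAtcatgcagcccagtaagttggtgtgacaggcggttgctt
Gclm: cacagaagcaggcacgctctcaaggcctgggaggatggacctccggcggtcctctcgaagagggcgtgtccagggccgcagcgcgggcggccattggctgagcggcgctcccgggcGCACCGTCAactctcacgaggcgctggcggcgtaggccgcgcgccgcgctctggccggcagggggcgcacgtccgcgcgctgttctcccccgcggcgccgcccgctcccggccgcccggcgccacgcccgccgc
Mt2: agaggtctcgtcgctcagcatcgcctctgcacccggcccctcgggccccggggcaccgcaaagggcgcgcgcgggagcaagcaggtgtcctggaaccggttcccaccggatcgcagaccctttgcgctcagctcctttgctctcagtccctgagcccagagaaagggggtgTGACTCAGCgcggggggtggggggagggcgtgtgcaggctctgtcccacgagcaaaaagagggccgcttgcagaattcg
Both strands were searched. The antioxidant response element was found in the windows of 11.5% of the 27025 genes of the promoter table, the AP-1 site in 7.82% and the composite in 3.89%, so these matches are descriptions and not sites shown to be used. The 2 windows of Alas1 held none of the motifs searched.

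Zinc handling gave 2 DEGs among 4 tested genes. Slc30a1, the plasma membrane zinc exporter, measured 1.8, 1.28 and 1.31 FPKM in Ctrl and 3.56, 4.42 and 4.78 in Ep1 (log2 fold change 1.09, SE 0.12, limma adjusted p = 0.00416), with 3.06 to 3.97 in Ep2. Mt2, a metallothionein that binds zinc and copper, measured 3.97, 3.48 and 4.49 FPKM in Ctrl and 11.8, 5.58 and 10.6 in Ep1 (log2 fold change 1.0, SE 0.24, limma adjusted p = 0.0348). Mt2 had Ep1 replicate 2 well under the other treated libraries and lost the call without any library but that one. Its paralog Mt1, expressed at 457 to 531 FPKM, had a log2 fold change of 0.01 (limma adjusted p = 0.908), and Mtf1, the zinc-sensing factor of these genes, one of 0.07 (limma adjusted p = 0.596).

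Of 23 tested genes of the integrated stress response, 5 rose and none fell, with a median log2 fold change of 0.09. Atf4 itself rose from 172, 162 and 166 FPKM to 231, 212 and 218 (log2 fold change 0.40, SE 0.048, limma adjusted p = 0.00487), and passed with any library left out. Slc3a2, the heavy chain that pairs with Slc7a11, rose by 0.28 on the log2 scale, Ppp1r15a, a phosphatase subunit that ends the response, by 0.40, and Cebpb, a partner of ATF4, by 0.54 (limma adjusted p = 0.0124, 0.0176 and 0.0157). Atf3, also on this list, is given with the early genes. Ddit3, the death-related factor CHOP, had a log2 fold change of 0.06 (limma adjusted p = 0.606). The count of 5 was 1 without Ctrl replicate 2 and 2 without Ctrl replicate 1 or Ep1 replicate 3. Of 20 tested cytosolic aminoacyl-tRNA synthetases none passed, and their median was 0.02. In the amino acid transporter list, Slc38a2, a neutral amino acid importer, was the 1 of 8 past the test, with 60, 53.1 and 58.6 FPKM in Ctrl and 97.8, 84.1 and 90.2 in Ep1 (log2 fold change 0.65, SE 0.12, limma adjusted p = 0.0164), and it lost the call without Ctrl replicate 2 (limma adjusted p = 0.0727), Ep1 replicate 1 (0.0627) or Ep1 replicate 3 (0.0632).

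Few chaperone genes passed the test in the fit over all 9 libraries. Of 23 tested genes of the endoplasmic reticulum and the unfolded protein response, Dnajb9, a co-chaperone of BiP, rose by 0.68 and Herpud1, of the degradation complex, by 0.30 on the log2 scale (limma adjusted p = 0.0261 and 0.0419). BiP itself, Hspa5, measured 283, 290 and 301 FPKM in Ctrl and 347, 329 and 325 in Ep1 (log2 fold change 0.19, limma adjusted p = 0.555), and its Ep2 libraries spread from 366 to 648. Of 21 tested heat shock genes 3 rose (Hspa9, Hspb8 and Dnaja1, by 0.18 to 0.24) and Hspe1 fell by 0.26. Hspb8 rose from 70.1 to 73 FPKM in Ctrl to 80.8 to 92 in Ep1. The inducible Hspa1b held 11.5 to 13.7 FPKM in Ctrl and 12.9 to 20 in Ep1, and did not pass the test (limma adjusted p = 0.325). Among the 34 tested proteasome subunits, Psmd11 passed the test, with a rise of 0.25 (limma adjusted p = 0.00943). In the fit on the 6 libraries of Ep1 and Ctrl alone, 8 endoplasmic reticulum genes rose and 1 fell, and 6 heat shock genes rose and 1 fell. That fit called 2217 of all 11345 tested genes, against 1369 in the fit over all 9 libraries. Neither call in the endoplasmic reticulum list passed without Ctrl replicate 1, Ctrl replicate 2, Ep1 replicate 1 or Ep1 replicate 3. Calls over all tested genes went from 1369 to 410, 201, 391 and 294 in these fits, in the same order. Hspa5, Hspa1b and Ddit3 were picked after their values were seen.

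Early-response genes were among the largest rises, with a wide spread between the Ep1 libraries. Of 29 tested on the early-response list, 12 rose and 1 (Gadd45b, by 0.30) fell, and the median log2 fold change was 0.22. Atf3, a stress-induced repressor counted above with the stress response, measured 1.88, 2.21 and 1.73 FPKM in Ctrl and 33.8, 8.36 and 11.2 in Ep1 (log2 fold change 2.43, SE 0.51, limma adjusted p = 0.0272). Ep1 replicate 1 stood well above the other treated libraries, and all 3 were above every Ctrl library. The orphan nuclear receptor Nr4a1 measured 4.91, 4.65 and 4.02 FPKM in Ctrl and 21.1, 10.6 and 11.8 in Ep1 (log2 fold change 1.43, SE 0.3, limma adjusted p = 0.0285). Its relative Nr4a2 had 1.35 to 1.66 FPKM in Ctrl and 10.1, 3.97 and 4.78 in Ep1 (log2 fold change 1.42, limma adjusted p = 0.0403). Fos and Fosb, subunits of AP-1, stood at 16.1 and 10.9 FPKM in Ep1 replicate 1 against Ctrl levels of 1.56 to 1.85 and 0.843 to 0.881, but with 4.51 to 4.66 and 2.44 to 3.17 FPKM in the other Ep1 libraries they did not pass the test (limma adjusted p = 0.0587 and 0.0685). Fosb passed the filter through the Ep1 libraries alone, so its higher level there was fixed by the filter.

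Ep1 replicate 1 was the highest of the Ep1 libraries in 11 of the 12 early genes that rose. The same library was the farthest from the Ctrl mean in 39 of the 64 higher DEGs and in 18 of the 27 lower ones, and in 4698 of all 11345 tested genes, while Ep1 replicate 2 was the nearest to it in 48, 20 and 4783. Genes with less spread had the smaller p-values: Maff, a small partner of NRF2 and AP-1 factors, measured 24.2, 26.6 and 23.8 FPKM in Ctrl and 41.4, 36.2 and 35.8 in Ep1 (log2 fold change 0.58, limma adjusted p = 0.00532), and passed with any library left out, as did Ier5 at 0.47 (limma adjusted p = 0.00979). Fosl2 at 0.54 and Csrnp1 at 0.61 (limma adjusted p = 0.012 for both) lost the call only without Ctrl replicate 2. The zinc finger factor Egr1 measured 3.83, 5.03 and 4.25 FPKM in Ctrl and 11.3, 7.13 and 8.72 in Ep1 (log2 fold change 0.89, limma adjusted p = 0.0124), with 4.43 to 5.8 in Ep2, and lost the call only without Ep1 replicate 3 (0.0511). The Kruppel-like factors Klf4 and Klf6 rose by 0.95 and 0.75, and Rhob, a small GTPase, by 0.88 (limma adjusted p = 0.0207, 0.0156 and 0.0348). Klf4 and Klf6 lost the call without Ctrl replicate 1 or Ctrl replicate 2, and Rhob kept it only without Ep1 replicate 1 or Ep1 replicate 2. Not every early gene was higher: Ier2 had a log2 fold change of -0.01 (limma adjusted p = 0.948), and Ier3, with 183 to 263 FPKM in Ep1, one of 0.11 (limma adjusted p = 0.703). The calls were sensitive to single libraries, and 3 early genes rose past the test without Ctrl replicate 2, 5 without Ctrl replicate 1, 6 without Ep1 replicate 3, 7 without Ctrl replicate 3 and 8 without Ep1 replicate 1. Over all 11345 tested genes the higher calls went from 754 to 122, 250, 175, 587 and 226 in these fits, in the same order. Without Ep1 replicate 1 Atf3 kept a log2 fold change of 1.86 (limma adjusted p = 0.0461), and Nr4a1 one of 1.14 (0.0665). Gadd45b, Egr1, Klf4, Klf6, Rhob, Fos and Ier2 were picked after their values were seen. Atf3 lost the call without Ctrl replicate 1 (limma adjusted p = 0.0766), Ctrl replicate 2 (0.0885), Ctrl replicate 3 (0.0529) or Ep1 replicate 3 (0.0723) and in the limma-voom fit (0.112), and Nr4a1 and Nr4a2 kept it in the fit without Ep1 replicate 2 alone.

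**Figure D3:**
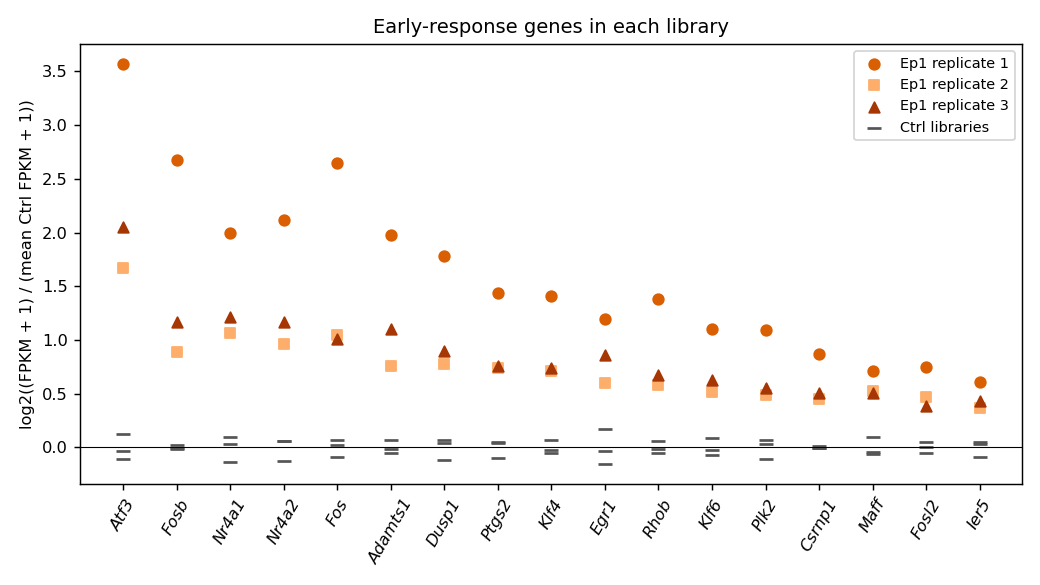
Log2 ratio of each Ep1 library (orange symbols) and each Ctrl library (grey dashes) to the mean Ctrl level, as (FPKM + 1) over (mean Ctrl FPKM + 1), for 17 early-response and related genes on the horizontal axis. Ep1 replicate 1 (circles) is highest in all 17, with 3.57 for Atf3 against 1.67 and 2.05 in the other Ep1 libraries, and the Ctrl libraries lie near 0. Fosb passed the filter through the Ep1 libraries alone.

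Of 14 tested feedback genes of the ERK pathway 5 rose, none fell and 9 did not pass, with a median of 0.10 and with Dusp1, a MAP kinase phosphatase, at 6.88, 7.07 and 6.05 FPKM in Ctrl and 25.4, 12.1 and 13.3 in Ep1 (log2 fold change 1.15, SE 0.28, limma adjusted p = 0.0412), and Spred1, an inhibitor of RAS signaling, up by 0.24 (limma adjusted p = 0.0136). Etv4, the feedback gene with the highest level, had a log2 fold change of -0.04 (limma adjusted p = 0.661). Of 7 tested ligands and receptors of the EGF family the 3 that passed were ligands, and all rose. Areg, amphiregulin, measured 26.4, 28.7 and 30.1 FPKM in Ctrl and 53.5, 40.9 and 46.4 in Ep1 (log2 fold change 0.70, SE 0.088, limma adjusted p = 0.00497), and 60.6, 56 and 59.1 in Ep2. Ereg, epiregulin, rose by 0.40 (limma adjusted p = 0.00624) and Tgfa by 0.34 (limma adjusted p = 0.0272). Areg and Ereg passed with any library left out. Of the receptors, Egfr had a log2 fold change of 0.14 (limma adjusted p = 0.203) and Erbb2 one of -0.24 (limma adjusted p = 0.115). Egfr was picked after its values were seen. Dusp1 kept its call in the fit without Ep1 replicate 2 alone, and Tgfa was past the test in 1 of the 6 fits without a library. Without Ctrl replicate 1, Ctrl replicate 2, Ep1 replicate 1 or Ep1 replicate 3 the ERK count was 1, and without Ctrl replicate 3 it was 2.

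Stretches of 40 bases that hold the cyclic AMP response element TGACGTCA, a site for the CREB and ATF families, are shown for 4 DEGs that hold it near the start; this motif stood in the windows of 1.77% of the genes of the promoter table. They lie at chr5:91139522-91139561, plus strand for Areg, chr17:26508592-26508631, minus strand for Dusp1, chr5:31138916-31138955, minus strand for Ucn and chr13:110394966-110395005, plus strand for Plk2, all in GRCm38.p6 from RefSeq. Capitals mark the motif, which starts 61, 143, 44 and 62 bases before the transcript start in that order, and in Dusp1 also an antioxidant response element on the opposite strand. The 4 were chosen after their values were seen, and all 4 were higher in Ep1. The windows of Maff and Ppp1r15a, which were higher as well, and of Pet100 also held the cyclic AMP response element. Pet100 was lower in Ep1, with log2 fold changes of -0.54 to -0.73 in the fits without 1 library.
Areg: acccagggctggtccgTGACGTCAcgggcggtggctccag
Dusp1: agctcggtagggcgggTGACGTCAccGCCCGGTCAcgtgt
Ucn: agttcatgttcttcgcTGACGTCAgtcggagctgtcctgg
Plk2: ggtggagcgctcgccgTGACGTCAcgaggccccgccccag
Ucn, the peptide urocortin, measured 3.19, 3.35 and 2.56 FPKM in Ctrl and 5.05, 5.32 and 5.66 in Ep1 (log2 fold change 0.66, SE 0.092, limma adjusted p = 0.0064), on 24 to 53 fragments. Plk2, a stress-induced kinase, went from 11.6 to 13.2 FPKM to 18 to 27.8 (log2 fold change 0.71, limma adjusted p = 0.0272). Plk2 lost the call without Ctrl replicate 1, Ctrl replicate 2 or Ep1 replicate 3.

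Other regulators rose with little spread between libraries. Ppp1r10 (ENSMUSG00000039220, chromosome 17, 35916434 to 35932283), a nuclear targeting subunit of protein phosphatase 1, measured 20, 18.1 and 16.5 FPKM in Ctrl and 56.5, 41 and 45.9 in Ep1 (log2 fold change 1.34, SE 0.11, limma adjusted p = 0.002), with 41.6, 38.9 and 45.2 in Ep2. Pcf11, which ends transcription at the cleavage site, rose from 9.24, 9.1 and 9.78 FPKM to 15.5, 13.9 and 14.9 (log2 fold change 0.60, limma adjusted p = 0.00416). Irs2, an adaptor of insulin signaling, rose from 2.6, 2.64 and 2.44 FPKM to 5.8, 4.74 and 5.49 (log2 fold change 0.83, SE 0.069, limma adjusted p = 0.00164), and the Ep1 and Ep2 means were both 5.34. Btg1, an inhibitor of proliferation, rose by 0.61, Pnrc1, a nuclear receptor coactivator, by 0.72, Hes1, the Notch target, by 0.61, and Sox9, a lineage factor, by 0.67 (limma adjusted p = 0.00808, 0.00644, 0.00276 and 0.0064). Each of these 7 genes passed with any library left out. Of 12 tested clock genes 3 rose and none fell, led by Per1, a repressor of the clock that is also an early gene, with 12, 12.1 and 9.84 FPKM in Ctrl and 20.8, 17.9 and 18.1 in Ep1 (log2 fold change 0.70, SE 0.086, limma adjusted p = 0.00487). Nr1d2, REV-ERB beta, rose by 0.55 and Nfil3 by 0.38 (limma adjusted p = 0.00917 and 0.0233). Nfil3 kept the call only without Ctrl replicate 3 or Ep1 replicate 2. Pcf11, Btg1, Pnrc1 and Hes1 were picked after their values were seen.

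Inflammatory genes split. Of 25 tested genes of the NF-kB pathway, cytokines and adhesion molecules, 3 rose and 3 fell, and the median was 0.01. Il11, a cytokine of the IL-6 family, measured 2.19, 2.69 and 1.82 FPKM in Ctrl and 8.88, 6.73 and 6.1 in Ep1 (log2 fold change 1.34, SE 0.19, limma adjusted p = 0.00808), and 7.38, 7.52 and 11.5 in Ep2. Sele, the adhesion molecule E-selectin, went from 6.57, 7.16 and 7.49 FPKM to 11.7, 9.64 and 10.6 (log2 fold change 0.52, limma adjusted p = 0.00808). Ptgs2, cyclooxygenase 2, went from 32.6, 36 and 36.1 FPKM to 96.4, 58.9 and 59.9 (log2 fold change 0.98, SE 0.22, limma adjusted p = 0.0331), and kept the call in the fit without Ep1 replicate 2 alone. Csf1, a growth factor of macrophages, fell from 25.1, 24.4 and 25.2 FPKM to 18.9, 19.7 and 19.7 (log2 fold change -0.34, limma adjusted p = 0.00699), with 25.4 ± 1.58 FPKM (SD, n = 3) in Ep2. The NF-kB regulators Bcl3 and Nfkbie fell by 0.34 and 0.32 on the log2 scale (limma adjusted p = 0.0383 and 0.0429), and Ccl2, the list's most abundant chemokine, had a log2 fold change of -0.08 (limma adjusted p = 0.56). The 15 tested interferon and antigen presentation genes had a median of -0.15, and Irf1, Usp18 and Ifi35 were the 3 that fell, by 0.32, 0.36 and 0.20 (limma adjusted p = 0.0131, 0.0242 and 0.0342), while none rose. Without Ctrl replicate 2, Ep1 replicate 1 or Ep1 replicate 3 no interferon gene passed. The lower calls over all tested genes went from 615 to 79, 165 and 119 in these fits, in the same order. Bcl3 and Nfkbie were picked after their values were seen.

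Genes of cell death moved in both directions. Of 18 tested members of the BCL2 family, caspases and death receptors, 5 rose and 2 fell, and the median was -0.01. Pmaip1 (NOXA), a BH3-only protein that opposes MCL1, went from 2.51, 2.28 and 2.12 FPKM to 5.3, 3.42 and 3.93 (log2 fold change 0.65, SE 0.13, limma adjusted p = 0.0155). Mcl1 itself, which protects from death, rose by 0.23, Xiap, a caspase inhibitor, by 0.29, and the death receptor Tnfrsf10b by 0.21 (limma adjusted p = 0.0325, 0.0139 and 0.0273). Bid, which links death receptors to mitochondria, fell by 0.31 (limma adjusted p = 0.0261). The BH3-only gene Bcl2l11 rose by 0.33 and Bmf, another, fell by 0.37 (limma adjusted p = 0.034 and 0.0338). Leaving out Ctrl replicate 2, or Ep1 replicate 3, left no member of the list past the test. Calls over all tested genes went from 1369 to 201 and 294 in these fits, in the same order.

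Matrix and tension genes also split, with 4 higher and 3 lower of 18 tested and a median of 0.04. Ajuba, a LIM protein at junctions, fell from 24.7, 23.7 and 25.4 FPKM to 17.4, 19.1 and 16.4 (log2 fold change -0.46, SE 0.056, limma adjusted p = 0.00487), and Amotl2, an angiomotin and YAP target, from 5.4, 5.25 and 5.93 to 3.97, 4.27 and 3.56 (log2 fold change -0.40, limma adjusted p = 0.00993). In Ep2 these genes had means of 14.2 ± 0.267 and 3.35 ± 0.126 FPKM (SD, n = 3). The YAP partner Tead1 and the YAP paralog Wwtr1 rose by 0.29 and 0.24 (limma adjusted p = 0.0091 and 0.00744). These 4 passed with any library left out. Skil, a SMAD inhibitor, and Thbs1, thrombospondin 1, also rose, by 0.34 and 0.63, and Smad6, an inhibitory SMAD, fell by 0.30 (limma adjusted p = 0.015, 0.0155 and 0.012). Of 16 tested junction and barrier transport genes, Slc7a1, a cationic amino acid transporter, rose by 0.32 (limma adjusted p = 0.0091) and Lrp1, a clearance receptor of the vessel wall, fell by 0.28 (limma adjusted p = 0.0126). Atoh8, a basic helix-loop-helix factor, was a DEG with 12.8, 11.2 and 11.4 FPKM in Ctrl and 6.44, 6.83 and 7.33 in Ep1 (log2 fold change -0.70, SE 0.091, limma adjusted p = 0.00497), and Snx33, a sorting nexin of endocytosis, with 9.71, 9.04 and 9.19 against 5.59, 5.57 and 5.66 (log2 fold change -0.64, SE 0.062, limma adjusted p = 0.00276). Snx33 was picked after its values were seen.

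Few cell cycle genes passed the test at this dose. Of 45 tested genes of DNA replication 1 rose and 2 fell, and of 36 tested mitotic genes none rose and 2 fell, with medians of 0.01 and 0.03. Pold1, a polymerase delta subunit, measured 21.3, 22.1 and 19.8 FPKM in Ctrl, 17, 17.7 and 18 in Ep1 and 8.95, 7.96 and 8.48 in Ep2 (log2 fold change of Ep1 -0.25, limma adjusted p = 0.0252). Kif2c, a mitotic kinesin, measured 21.6, 20.8 and 20 FPKM in Ctrl, 15.9, 18.1 and 17.8 in Ep1 and 7.4, 8.48 and 7.55 in Ep2 (log2 fold change of Ep1 -0.26, limma adjusted p = 0.034). Mcm4, of the replicative helicase, rose by 0.18 in Ep1 (limma adjusted p = 0.0213) and had 59.9 to 62.4 FPKM in Ep2 against 81.6 to 86 in Ctrl. The other falls were those of Pola2, of DNA polymerase alpha, by 0.17 (limma adjusted p = 0.0465), and Espl1, separase, by 0.19 (limma adjusted p = 0.045). Pold1 and Mcm4 each kept the call in 1 of the 6 fits without a library, and no replication gene passed without Ctrl replicate 1, Ctrl replicate 2, Ep1 replicate 2 or Ep1 replicate 3. The libraries of Pold1 and Kif2c did not overlap between any of the 3 groups. No mitotic gene passed without Ctrl replicate 1, Ctrl replicate 2, Ep1 replicate 1 or Ep1 replicate 3. Calls over all tested genes went from 1369 to 410 and 201 without Ctrl replicates 1 and 2. They went to 391, 850 and 294 without Ep1 replicates 1, 2 and 3. None of the 17 tested histone genes passed, and the range of their log2 fold changes was -0.44 to 0.41. Cholesterol and lysosome lists gave 1 gene lower of 26 (Dhcr7, a late step of sterol synthesis, by 0.28, limma adjusted p = 0.0292) and, of 24, 1 higher and 1 lower, of which Gabarapl1, an autophagosome protein, rose by 0.37 (limma adjusted p = 0.00808) and Tfeb, the factor of lysosomal genes, fell by 0.26 (limma adjusted p = 0.0299). Of 27 tested genes of hypoxia and glycolysis, only Eno1, an enolase, passed (3.7%), with a fall of 0.14 (limma adjusted p = 0.033). Eno1 lost the call in each of the 6 fits without a library. Dhcr7 kept it only without Ctrl replicate 1 and Tfeb only without Ctrl replicate 3, while Gabarapl1 passed with any library left out.

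**Figure D4:**
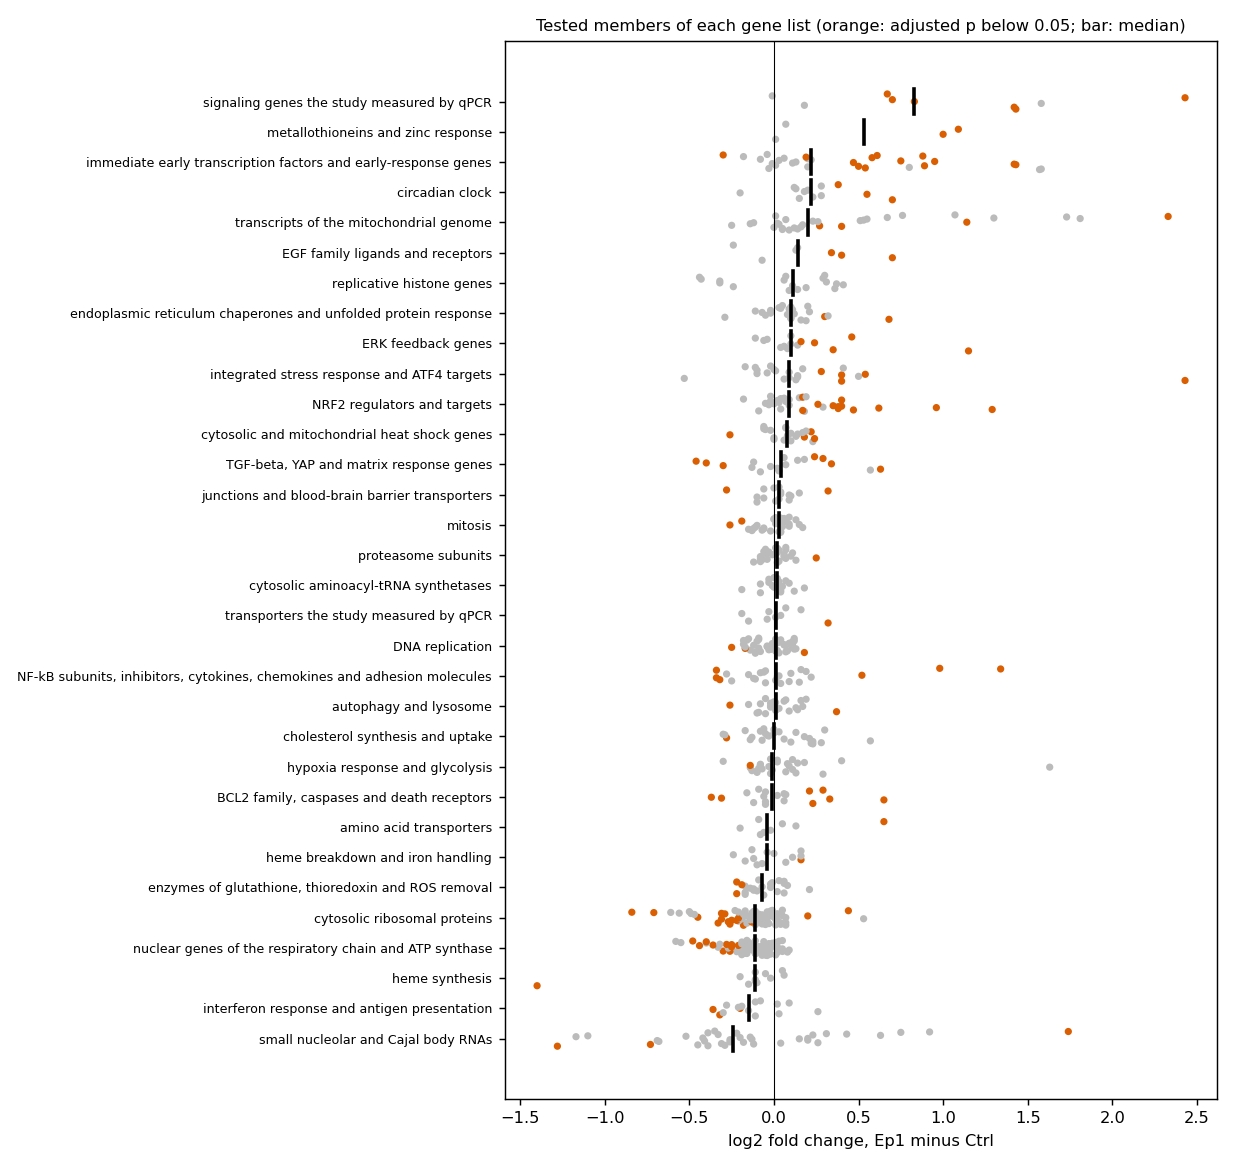
Log2 fold change (Ep1 minus Ctrl, horizontal axis) of the tested members of each gene list, ordered by list median (black bars), with orange points for adjusted p below 0.05. Most list medians lie between -0.15 and 0.22, and the early-response, NRF2 and stress lists have orange points to the right while those of the ribosomal and respiratory lists lie mostly to the left.

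Some genes of ribosomes and respiration fell, and most members of both lists did not pass the test. Of 82 tested cytosolic ribosomal protein genes 14 fell and 2 rose (Rpl23a and Rpl22l1, by 0.20 and 0.44), and 66 had a log2 fold change below 0, with a median of -0.11. The DEGs among them were Rps29, at 627, 671 and 554 FPKM in Ctrl and 292, 451 and 305 in Ep1 (log2 fold change -0.84, SE 0.19, limma adjusted p = 0.031), and Rps28, at 335, 370 and 311 against 184, 251 and 188 (log2 fold change -0.71, limma adjusted p = 0.0348). Rplp1, the most abundant of the list, had a log2 fold change of -0.07 (limma adjusted p = 0.548). Of 76 tested nuclear genes of the respiratory chain and ATP synthase 10 fell and none rose (13.2% past the test), with a median of -0.11. Ndufa6, a complex I subunit, fell from 28.4, 30.5 and 28.6 FPKM to 21.7, 23.6 and 22.3 (log2 fold change -0.36, limma adjusted p = 0.00808). Calls in these lists changed with single libraries left out, as did the calls over all tested genes. Without Ctrl replicate 2 or without Ep1 replicate 3, 1 ribosomal gene and 1 respiratory gene fell past the test. The numbers were 2 and 1 without Ep1 replicate 1, and 3 and 3 without Ctrl replicate 1. They were 9 and 7 without Ctrl replicate 3, and 15 and 9 without Ep1 replicate 2. The lower calls over all tested genes went from 615 to 79, 119, 165, 160, 477 and 387 in these fits, in the same order. Several ribosomal genes can share reads with processed pseudogenes, so their values are uncertain. FPKM is scaled to library size, so these values are relative levels and measure neither the number of cells nor the RNA per cell.

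Gene length moved with the direction of change. The tested genes were split by length into 5 groups of equal number. From the shortest to the longest group the share past the test and higher went from 2.64% to 10.9%, and the share lower was 5.77%, 5.91%, 7.09%, 5.29% and 3.04%. The median length was 1754 bases for the ribosomal list and 1688 for the respiratory list, against 3997 for all tested genes. It was 5502 for the genes past the test and higher and 3655 for those past the test and lower. Both sets of DEGs were shorter than all tested genes, with medians of 2066 for the 64 higher and 411 for the 27 lower DEGs. After a lowess correction for gene length the higher share was 3.92%, 6.61%, 7.49%, 8.47% and 7.67% from the shortest to the longest group. The lower share was 4.28%, 3.79%, 6.04%, 5.64% and 5.16% in the same order. With that correction 13 ribosomal and 9 respiratory genes still fell past the test, and the part of length in these lists was otherwise not tested. The correction left 68 higher and 17 lower DEGs.

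**Figure D5:**
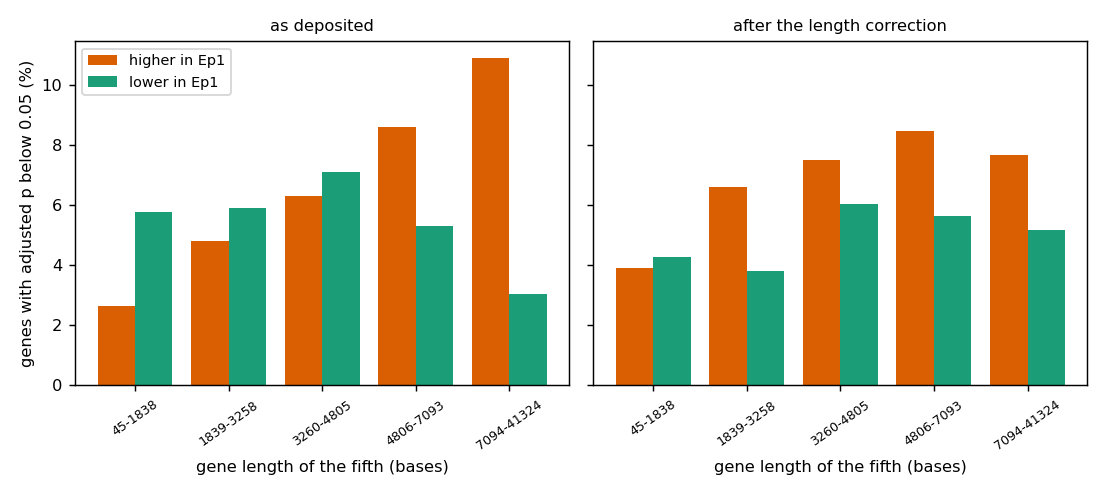
Percent of genes with an adjusted p below 0.05 (vertical axis, from 0) that were higher (orange bars) or lower (green bars) in Ep1, for 5 groups of tested genes of equal number by gene length (horizontal axis, bases), as deposited (left) and after the length correction (right). The orange bars rise from 2.64% to 10.9% with length on the left and lie between 3.92% and 8.47% on the right.

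Small and mitochondrial RNAs made up some of the largest changes. Of 30 tested transcripts of the mitochondrial genome 4 rose and none fell, with a median of 0.20. mt-Nd6, the complex I subunit of the light strand, rose from 475, 469 and 539 FPKM to 636, 668 and 655 (log2 fold change 0.40, SE 0.062, limma adjusted p = 0.00809), and passed with any library left out. The ribosomal RNA mt-Rnr1 rose by 0.27 (limma adjusted p = 0.0397), and mt-Co1, the most abundant of the list, had a log2 fold change of 0.09 (limma adjusted p = 0.399). The transfer RNA mt-Tl1 measured 41.5, 42.3 and 63.9 FPKM in Ctrl and 113, 104 and 106 in Ep1 (log2 fold change 1.14, limma adjusted p = 0.0178), and mt-Ti rested on 2, 0 and 2 fragments in Ctrl and 11, 11 and 9 in Ep1 (limma adjusted p = 0.0135). Of 36 tested small nucleolar and Cajal body RNAs 1 rose and 2 fell, with a median of -0.24. Snord104 measured 107, 105 and 76.2 FPKM in Ctrl and 30.9, 49.4 and 37.7 in Ep1 (log2 fold change -1.28, SE 0.22, limma adjusted p = 0.0155). These 3 genes are 69 to 75 bases long, shorter than the fragments of a standard library, which makes their FPKM uncertain. Without Ep1 replicate 1, 1 mitochondrial transcript and no small nucleolar RNA passed, and no small nucleolar RNA passed without Ctrl replicate 2 or Ep1 replicate 3. Calls over all tested genes went from 1369 to 391, 201 and 294 in these fits, in the same order.

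Pseudogenes gave 26 of the 91 DEGs. Gm5805 measured 11.9, 10.3 and 15.6 FPKM in Ctrl and 53.8, 26.5 and 54.5 in Ep1 (log2 fold change 1.70, SE 0.29, limma adjusted p = 0.0154), and lost the call without Ctrl replicate 1 (limma adjusted p = 0.0526), Ctrl replicate 2 (0.0675), Ep1 replicate 1 (0.0553) or Ep1 replicate 3 (0.0604). Gm8129 measured 45.5, 47.5 and 45.8 FPKM in Ctrl and 21.9, 30.8 and 22.5 in Ep1 (log2 fold change -0.88, SE 0.11, limma adjusted p = 0.00497), and passed with any library left out. The glycolytic gene Gapdh, which has many processed copies, was listed at 7.03, 19.8 and 7.05 FPKM in Ctrl and 38.9, 17 and 54.3 in Ep1, its groups overlapped and it did not pass (limma adjusted p = 0.212). Gapdh was picked after its values were seen. Reads of such near-identical copies can be split between them in the counting, and these values are uncertain.

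The signaling genes that the study followed by qPCR at the higher light dose were picked with differential calls and enrichment results of this RNA-seq experiment, the latter from Ep2 against Ctrl. That comparison shares the Ctrl libraries used here, so the set is no independent evidence of direction. Of 9 tested signaling genes from the qPCR set, 6 rose and none fell, with a median of 0.83: Irs2, Areg, Sox9, Atf3, Nr4a1 and Nr4a2. The count was 3 without Ctrl replicate 1, Ctrl replicate 2, Ctrl replicate 3 or Ep1 replicate 3, 4 without Ep1 replicate 1, and 3 with limma-voom. Fosb did not pass the test, and it counts in the median of 0.83 although it passed the filter through the Ep1 libraries alone and so had to differ. F2rl1, a protease receptor, had a log2 fold change of 0.18 (limma adjusted p = 0.247) with 24.8 FPKM in Ep2 against 10.9 to 12.4 in Ctrl, and Ace, angiotensin-converting enzyme, had one of -0.01 (limma adjusted p = 0.983). Of 9 tested transporters from the qPCR set, Slc7a1 rose and the other 8 did not pass, with log2 fold changes of the 9 from -0.19 to 0.32.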

How the data were processed

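Bulk RNA-seq of 9 libraries (3 Ctrl, 3 Ep1, 3 Ep2) was deposited by the authors as FPKM per gene, in a joint table and in single-library tables of the same values. GEO's processing notes name Bowtie 0.12.2 and the build mm8, the study's methods name GRCm39, and 99.9% of the 37624 listed positions that could be compared overlap the same gene in GRCm38. The counting tool, its strand setting and its treatment of shared reads are not given in the sources used here. Multiplying the deposited FPKM by gene length gave whole fragments (100.0% within 0.05), with totals of 18289776 to 19509225 in Ctrl and 16797492 to 18603707 in Ep1.

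A gene was tested when its FPKM reached 1 in 3 or more of the 6 compared libraries, and the test was made on log2(FPKM + 1) with limma 3.58.1 in R 4.3.3. One mean per group was fitted over all 9 libraries, so the Ep2 libraries add to the estimate of the spread, and eBayes used trend and robust. The pseudocount makes the fold changes of low genes too small. P-values were adjusted by Benjamini-Hochberg over 11345 genes. Past the test means an adjusted p below 0.05, and a DEG also has an absolute log2 fold change above 0.6, the study's threshold. The members, the gene lists and the tests were chosen with earlier results of these data known, so list counts and medians are descriptions.

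Named genes were the 15 DEGs with the largest rise and the 15 with the largest fall whose libraries did not overlap and whose mean FPKM was in the upper 75% of tested genes, up to 4 list members with the smallest adjusted p and the most abundant member of each list, all tested members of the heme, zinc and qPCR lists, and the marker genes. From these the text describes a selection, a few genes the rule takes are not reported here, and genes outside the rule are named as picked after their values were seen or because they complete a short count. The fit was tested on simulated data. The alternatives were a fit on the 6 libraries, a pseudocount of 0.1, no filter, a filter at FPKM 5, median centring, a lowess correction for gene length, a replicate block, eBayes without trend and robust, limma-voom on the recovered fragments, and each library left out in turn. A comparison of promoter motifs between gene sets was void, because 72.1% of tested genes and 51.6% of higher DEGs had an entry in the RefSeq promoter table, so single sequences are shown only.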

Additional observations from a re-analysis of the deposited data

Results flagged for a closer look

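A set of 5 genes under the FPKM filter, which the comparison above did not use, were higher in Ep1 by more than 2 log2 units in the limma-voom fit on recovered fragments, at an adjusted p below 0.05. Their log2 fold changes were 2.23 for A3galt2, 2.24 for Ccdc169, 2.33 for Ampd1, 2.42 for Lag3 and 2.56 for 1700001P01Rik. Of 2525 genes under the filter that this fit tested, 93 passed the adjusted p. All of these rest on few fragments per library.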

How the results depend on the processing

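Replicate numbers did not pair the samples: the correlations of same-numbered Ctrl and Ep1 libraries, as deviations from their group means, were -0.01, -0.02 and 0.01. With the replicate block 1110 genes passed the adjusted p, 78 were DEGs, 16 exceeded 1 log2 unit and 3 of the 9 qPCR signaling genes rose. Over 3399 comparisons of 231 named genes, no gene past the test as reported or in the alternative changed sign, 578 lost the call and 49 gained one. Genes past the test in neither changed sign in 26 comparisons of 9 genes, such as Ier3 at -0.06 without Ep1 replicate 1. Fitting the 6 libraries alone called 2217 genes (1171 higher, 1046 lower) and 193 members of the gene lists, against 125 of 775 as reported. A pseudocount of 0.1 gave 141 DEGs (56 lower), 41 beyond 1 log2 unit, 122 DEGs not passing the filter through 1 group alone, and a distance ratio of 1.20. Without a filter the values were 506 genes (307 higher, 199 lower), 52 DEGs (39 higher, 13 lower), 47 DEGs from both groups, 59 list members and a ratio of 1.16. The stricter filter gave 60 DEGs (39 higher) and a ratio of 1.54. The length correction left 17 lower DEGs. Limma-voom, over its own 13653 genes, gave 1088 lower genes, 243 DEGs (127 higher, 116 lower), 98 beyond 1 log2 unit and 227 DEGs from both groups. Of the 98, 37 higher and 22 lower genes were under the FPKM filter and so were not tested in the main fit. The cause of the other shifts was not tested. Leaving out 1 library gave 201 to 1064 genes (122 to 587 higher, 79 to 477 lower), 31 to 105 DEGs (22 to 76 higher, 8 to 42 lower), 8 to 37 beyond 1 log2 unit, 28 to 99 DEGs from both groups, 31 to 106 list members and a ratio of 1.25 to 1.40. The lowest gene count was that without Ctrl replicate 2, and the counts were 294 without Ep1 replicate 3, 391 without Ep1 replicate 1, 410 without Ctrl replicate 1 and 850 without Ep1 replicate 2. Of 480 list medians recomputed, 429 moved by less than the spread between replicates. Genes of few fragments, such as mt-Ti, are limited by depth.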
